A study of Mus musculus with 6 samples.

Results

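Messenger RNA levels of genes for making, sensing and exporting sterols and fatty acids were measured in 3 sorted populations of mouse CD4+ T cells. The genes were taken from a list of 33 named enzymes, regulators and transporters, and every probe set that carried the symbol of a listed gene alone was used. In this way 32 genes were measured by 35 of the 23410 probe sets with a gene symbol; Idi1, Fdft1 and Acaca had 2 each, and Acat2 was not analysed here. A further probe set names Srebf2 along with other genes and was left out.

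All cells are described as CD4+ CD44+ T cells, that is, as antigen-experienced helper cells. They came from the draining lymph nodes of male Bcl6_RFP reporter mice aged 8 to 10 weeks. Levels of markers of other cells are given below. The mice had been immunised with KLH, a foreign protein, in CFA, an oil-based adjuvant. Cells were sorted by surface Cxcr5, the chemokine receptor of B cell follicles, and by the red fluorescent reporter of Bcl6, the repressor needed for follicular helper T cells. The groups were Cxcr5-Bcl6-, Cxcr5+Bcl6- and Cxcr5+Bcl6+, with 2 Affymetrix arrays each; all 3 carried the reporter and were immunised alike. The series calls the arrays of a group biological replicates, and no source used here says whether mice were pooled. Where pooling is unknown, p-values measure the spread between these arrays only.

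Cells build cholesterol from acetyl-CoA through mevalonate, isoprenoids, squalene and lanosterol, and fatty acids from the same precursor through malonyl-CoA. When sterols run low, Scap carries the SREBP factors (Srebf1, Srebf2) from the endoplasmic reticulum, where Insig proteins otherwise hold them, and the released factors raise transcription of both pathways. Activated T cells draw on these pathways for new membrane, while liver X receptors respond to excess sterol through the exporters Abca1 and Abcg1.

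Levels are log2 values as the authors normalised them, so a difference of 1 is a 2-fold difference. A probe set was called when limma's moderated test, fitted to all 6 arrays, gave an adjusted p under 0.05. The 3 comparisons share arrays and are not independent. Arrays of a group correlated at 0.9966 to 0.9985 over all probe sets and arrays of different groups at 0.9706 to 0.9924. Between Cxcr5+Bcl6+ and Cxcr5-Bcl6- cells, 21 of the 35 probe sets differed (60.0%), against 35.3% of all probe sets tested. Of these, 9 were higher in Cxcr5+Bcl6+ cells (25.7%, against 17.6% of all) and 12 were lower (34.3%, against 17.7%). After renewed quantile normalisation the split was 15 higher and 11 lower. Between Cxcr5+Bcl6- and Cxcr5-Bcl6- cells 7 differed (20%, against 11.1%), 4 of them higher (background 5.22%) and 3 lower (5.93%). Between the Cxcr5+ groups 10 differed (28.6%, against 26.4%), 6 higher in Cxcr5+Bcl6+ cells (background 13.4%) and 4 lower (background 13%), but 3 higher and 5 lower once each array was centred on its median, and 8 and 3 after quantile normalisation. When all 35556 rows were tested, the last 2 comparisons had 2 and 6 calls. The share called lay nearest to the background between the Cxcr5+ groups.

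The median difference over the 35 probe sets was -0.02, -0.01 and 0.07 in the same order, beside 0.04, -0.03 and 0.05 over all probe sets tested. The genes thus showed no common direction, and rises and falls stood side by side along the same pathway. In size, the median difference without its sign was 0.37 between Cxcr5+Bcl6+ and Cxcr5-Bcl6- cells, against 0.18 over all probe sets. Cxcr5+Bcl6- cells had the middle of the 3 group means for 24 of 35 probe sets (68.6%), against 49.2% of all tested. In 13 of these the level climbed from Cxcr5-Bcl6- through Cxcr5+Bcl6- to Cxcr5+Bcl6+ cells, and in 11 it fell. Such courses were common, since of all 23410 probe sets tested 5754 climbed and 5774 fell in that order. The spread between arrays of a group had a median SD of 0.0708 over these probe sets and reached 0.293, for Scd1 in Cxcr5+Bcl6+ cells.

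**Figure D1:**
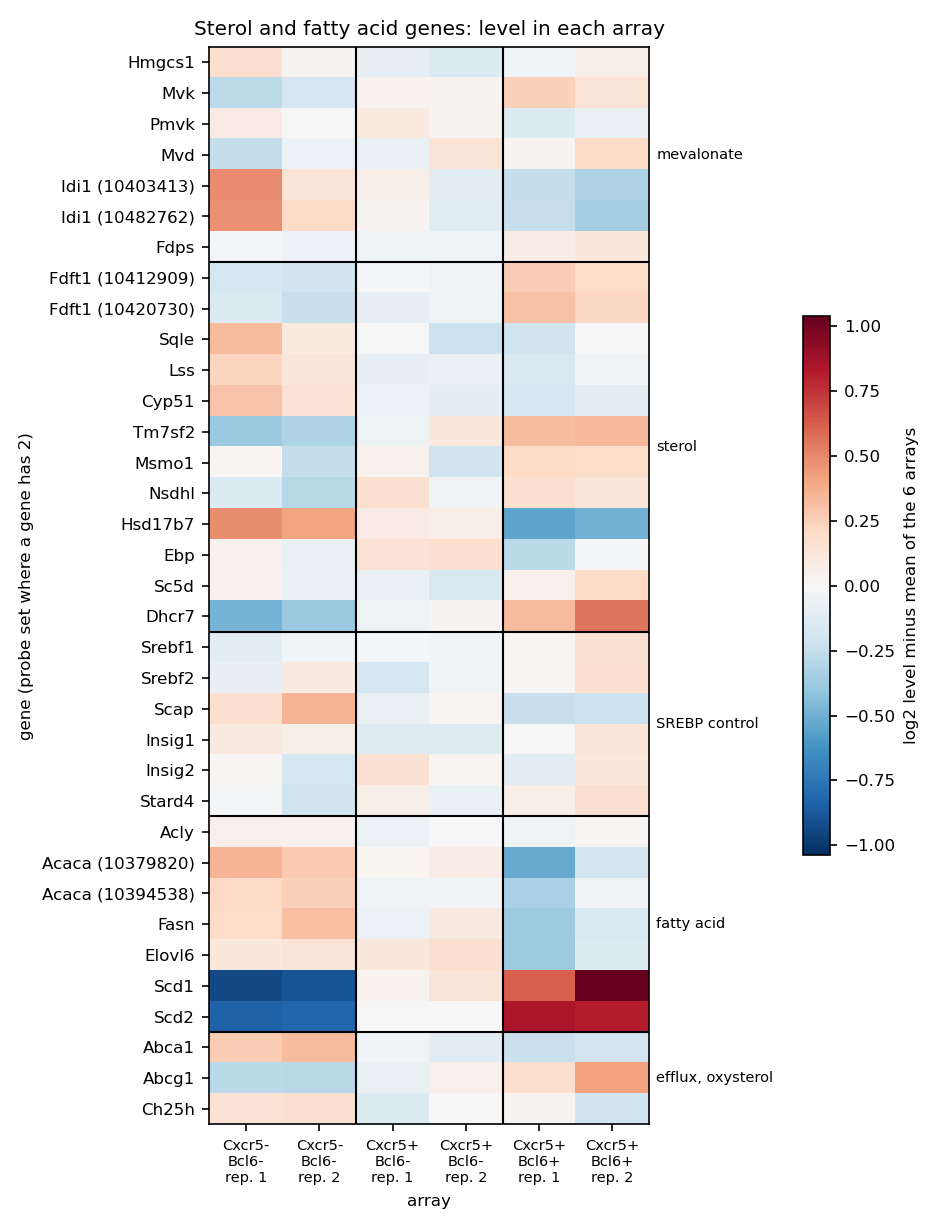
Level of each of the 35 probe sets in each of the 6 arrays (columns, 2 per sorted group), as log2 level minus that probe set's mean over the arrays; red is above and blue below the mean, and horizontal lines part the roles. Scd1 and Scd2 run from dark blue in Cxcr5-Bcl6- to dark red in Cxcr5+Bcl6+ arrays, while Hsd17b7 runs the other way.

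Below, the outer groups are Cxcr5-Bcl6- and Cxcr5+Bcl6+, and a difference between them is signed as the level in Cxcr5+Bcl6+ minus that in Cxcr5-Bcl6- cells. Over all probe sets 17.6% were called higher and 17.7% lower between these groups. Whether the counts of a branch depart from these shares was not tested. In the mevalonate branch, 1 of 6 measured genes was higher in Cxcr5+Bcl6+ cells and 1 was lower, near the shares over all probe sets. Mvk, mevalonate kinase, stood at 9.48 and 9.58 in Cxcr5-Bcl6-, 9.79 and 9.78 in Cxcr5+Bcl6- and 10.00 and 9.90 in Cxcr5+Bcl6+ arrays. The 3 groups did not overlap, and the rise of 0.43 (SE 0.0899) between the outer groups passed (adjusted p = 0.00288), while the steps of 0.26 (adjusted p = 0.0987) and 0.17 (adjusted p = 0.201) did not. Idi1, which isomerises the isoprenoid unit that later enzymes join, went the opposite way. Its probe set 10482762 read 11.69 and 11.42 in Cxcr5-Bcl6-, 11.24 and 11.09 in Cxcr5+Bcl6- and 10.98 and 10.87 in Cxcr5+Bcl6+ arrays. Between the outer groups it was 1.55-fold lower in Cxcr5+Bcl6+ cells (log2 difference -0.63, SE 0.109, adjusted p = 0.000762).

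The other Idi1 probe set, 10403413, gave nearly the same picture, with 11.71 and 11.36, then 11.28 and 11.10, then 10.97 and 10.90. On any array the 2 probe sets lay at most 0.06 apart. They met the threshold alike for the outer groups (-0.61, SE 0.119, adjusted p = 0.00186), yet parted between Cxcr5+Bcl6- and Cxcr5-Bcl6- cells, where 10482762 passed (-0.39, SE 0.109, adjusted p = 0.039) and 10403413 did not (-0.35, SE 0.119, adjusted p = 0.0932). The 2 estimates lay closer together than either SE, and the difference between the probe sets was not tested. The call of 10482762 ended when any array but Cxcr5-Bcl6- replicate 2 was left out (adjusted p = 0.0614 to 0.295, the highest without Cxcr5+Bcl6- replicate 2), after quantile normalisation (0.0539) and after centring (0.0601).

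The remaining mevalonate genes passed in no comparison. Hmgcs1, which makes HMG-CoA, read 11.69 and 11.55, then 11.44 and 11.38, then 11.48 and 11.59, and the outer groups overlapped (difference -0.08, 95% interval -0.29 to 0.13). Pmvk, phosphomevalonate kinase, differed by -0.15 between the outer groups (interval -0.35 to 0.05), Mvd, the decarboxylase that follows it, by 0.27 (0.03 to 0.51, adjusted p = 0.0779) and Fdps, farnesyl diphosphate synthase, by 0.14 (-0.05 to 0.32). After quantile normalisation Mvd (adjusted p = 0.0371) and Fdps (adjusted p = 0.0379) passed as higher. Mvd also passed when Cxcr5-Bcl6- replicate 2 was left out (0.0378) and when probe sets below the median level were (0.0485).

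Hmgcs1 is shown because it held the sole match among these genes to the letters TCACNCCAC, a form of the sterol regulatory element that SREBP factors bind. The search covered both strands of the 250 bases before each RefSeq start of build GRCm38.p6, and 26 of the 33 listed genes had such a window. Among all 27025 genes with a window 1.22% held this motif. The E-box CACGTG, whose strands read alike, was found in 6 of the 26 genes (23.1%, against 6.86% of all), and CCAAT, the box bound by NF-Y, in 19 of 26 (73.1%, against 37.5% of all). In the lines of sequence below, capitals mark these 3 motifs on either strand.
Hmgcs1, chr13:119690101-119690350, plus strand: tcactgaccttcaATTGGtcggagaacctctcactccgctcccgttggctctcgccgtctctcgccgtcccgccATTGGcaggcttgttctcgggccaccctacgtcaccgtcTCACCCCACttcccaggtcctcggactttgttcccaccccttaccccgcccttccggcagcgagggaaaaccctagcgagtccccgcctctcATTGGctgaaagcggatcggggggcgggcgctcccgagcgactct
The capitals are CCAAT boxes read on the other strand, except for the sterol regulatory element, which starts 137 bases before the start site.

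Squalene and sterol enzymes went both ways. Of 11 measured genes, 4 were higher in the Cxcr5+Bcl6+ arm of that comparison (Fdft1, Tm7sf2, Nsdhl, Dhcr7), 4 were lower (Sqle, Lss, Cyp51, Hsd17b7) and 3 did not pass. After quantile normalisation Sqle and Lss no longer passed, and Msmo1 and Sc5d passed as higher. In the order of the pathway, the step into squalene was higher, the 3 steps from squalene through lanosterol to its demethylation were lower, and later steps split.

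Fdft1, squalene synthase, which commits isoprenoids to sterols, rose with both of its probe sets. Probe set 10420730 read 11.80 and 11.71 in Cxcr5-Bcl6-, 11.86 and 11.89 in Cxcr5+Bcl6- and 12.25 and 12.16 in Cxcr5+Bcl6+ arrays, a rise of 0.45 between the outer groups (SE 0.0884, adjusted p = 0.00178). Probe set 10412909 read 11.66 and 11.64, then 11.82 and 11.81, then 12.10 and 12.03, a rise of 0.41 (SE 0.0857, adjusted p = 0.00258). Between the Cxcr5+ groups the first of these passed with 0.33 (adjusted p = 0.017) and the other just missed with 0.25 (adjusted p = 0.053). The arrays of the Cxcr5+ groups did not overlap for either probe set. Probe set 10412909 passed there after quantile normalisation (adjusted p = 0.0232), while 10420730 did not after centring (0.0625). Leaving out Cxcr5+Bcl6+ replicate 1, Cxcr5+Bcl6- replicate 1 or Cxcr5+Bcl6- replicate 2 gave 10420730 an adjusted p of 0.0798, 0.139 or 0.102.

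**Figure D2:**
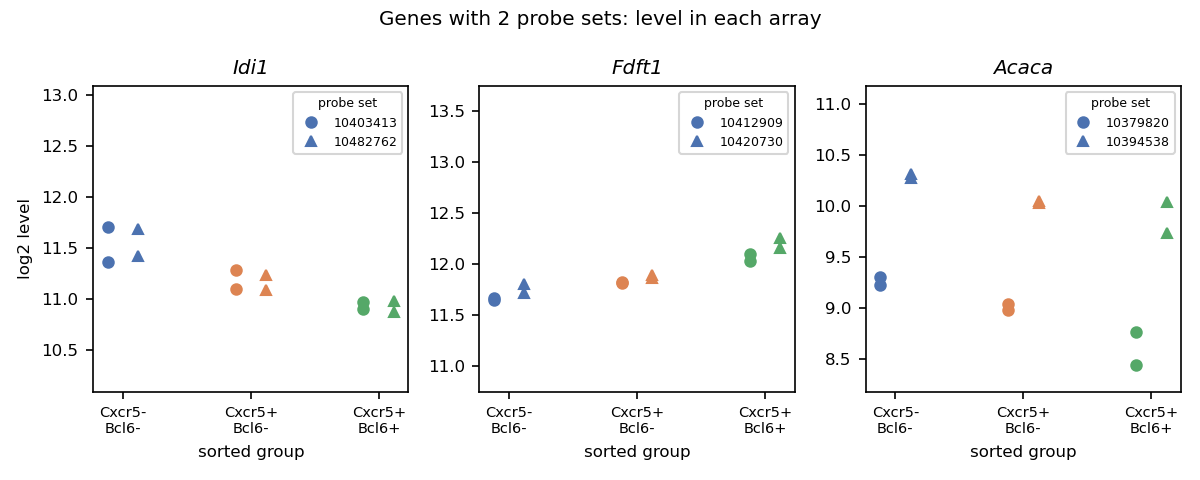
Log2 level of the genes with 2 probe sets (circles and triangles) in each array of the 3 sorted groups. The Idi1 and Fdft1 probe sets lie within 0.15 of each other on every array, whereas the Acaca probe sets lie 0.97 to 1.30 apart and share the downward course.

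The enzymes after squalene synthase were lower by smaller amounts. Sqle, squalene epoxidase, read 11.19 and 10.97 in Cxcr5-Bcl6-, 10.87 and 10.64 in Cxcr5+Bcl6- and 10.66 and 10.86 in Cxcr5+Bcl6+ arrays (difference -0.33 between the outer groups, SE 0.115, adjusted p = 0.0466). Lss, which closes the sterol rings to form lanosterol, read 10.03 and 9.93, then 9.72 and 9.74, then 9.64 and 9.77 (-0.27, SE 0.0911, adjusted p = 0.0351). Cyp51, which demethylates lanosterol, read 11.11 and 10.96, then 10.75 and 10.72, then 10.64 and 10.70 (-0.37, SE 0.0917, adjusted p = 0.00809). In these 3 genes the Cxcr5-Bcl6- arrays stood above all 4 Cxcr5+ arrays, and the Cxcr5+ groups differed by 0.00, -0.03 and -0.07, none past the threshold. The calls were not robust. Sqle and Lss did not pass after quantile normalisation (adjusted p = 0.172 and 0.0882), when all 35556 rows were tested (0.12 and 0.0708), without Cxcr5-Bcl6- replicate 1 (0.263 and 0.158) or without Cxcr5+Bcl6+ replicate 1 (0.269 and 0.154). Lss also missed without Cxcr5+Bcl6- replicate 1 or 2 (0.073 each). Cyp51 missed without Cxcr5-Bcl6- replicate 1 (0.0582).

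Among the later steps, Tm7sf2 and Dhcr7 rose and Hsd17b7 fell at each of the 3 comparisons. Tm7sf2, a sterol reductase that acts after Cyp51, read 7.97 and 8.03 in Cxcr5-Bcl6-, 8.30 and 8.46 in Cxcr5+Bcl6- and 8.67 and 8.69 in Cxcr5+Bcl6+ arrays. It was 1.60-fold higher between the outer groups (0.68, SE 0.0917, adjusted p = 0.000127), with steps of 0.38 (adjusted p = 0.0211) and 0.30 (adjusted p = 0.0323). The step of 0.30, between the Cxcr5+ groups, was about the median difference there of olfactory and related receptor probe sets, described with Scd1 below. Dhcr7, the reductase that makes cholesterol from its immediate precursor, read 9.23 and 9.33, then 9.66 and 9.74, then 10.04 and 10.27. It was 1.83-fold higher (0.87, SE 0.101, adjusted p = 3.58e-05), with steps of 0.42 (adjusted p = 0.0192) and 0.45 (adjusted p = 0.00635). The groups did not overlap for either gene.

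Hsd17b7, a sterol ketoreductase that works with Nsdhl to remove methyl groups from the sterol ring, was the sterol enzyme with the largest difference. It read 10.27 and 10.20 in Cxcr5-Bcl6-, 9.87 and 9.86 in Cxcr5+Bcl6- and 9.24 and 9.29 in Cxcr5+Bcl6+ arrays. Between the outer groups the level fell 1.95-fold (-0.97, SE 0.0863, adjusted p = 4.89e-06), with steps of -0.37 (adjusted p = 0.0173) and -0.60 (adjusted p = 0.000398). Its partner Nsdhl moved the other way, at 10.44 and 10.30, then 10.75 and 10.56, then 10.75 and 10.71 (0.36, SE 0.0982, adjusted p = 0.0135). The Nsdhl call ended when Cxcr5+Bcl6+ replicate 1 (adjusted p = 0.0687) or Cxcr5-Bcl6- replicate 2 (0.0686) was left out. Single-array omission also ended the smaller steps: from Cxcr5-Bcl6- to Cxcr5+Bcl6- cells, Tm7sf2, Dhcr7 and Hsd17b7 each missed without Cxcr5-Bcl6- replicate 1 (adjusted p = 0.0782, 0.0847 and 0.071), without Cxcr5+Bcl6- replicate 1 (0.0557, 0.0693 and 0.142) and without Cxcr5+Bcl6- replicate 2 (0.296, 0.155 and 0.156). Between the Cxcr5+ groups Tm7sf2 missed after centring (0.105) and without any of the 4 arrays compared (0.0656 to 0.333), and Dhcr7 without Cxcr5+Bcl6+ replicate 2 (0.051) or Cxcr5+Bcl6- replicate 1 (0.0562). Over the outer groups, and for Hsd17b7 between the Cxcr5+ groups, the calls of these 3 genes held in all 18 alternatives run.

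The windows before Tm7sf2, Dhcr7 and Hsd17b7 are shown because these sterol enzymes passed in all 3 comparisons, and in opposite directions. Dhcr7 has 3 RefSeq starts, and the window printed is that at the start of the gene. The window of Tm7sf2 is also at the start of its gene, whereas the only window of Hsd17b7 is not.
Tm7sf2, chr19:6067851-6068100, minus strand: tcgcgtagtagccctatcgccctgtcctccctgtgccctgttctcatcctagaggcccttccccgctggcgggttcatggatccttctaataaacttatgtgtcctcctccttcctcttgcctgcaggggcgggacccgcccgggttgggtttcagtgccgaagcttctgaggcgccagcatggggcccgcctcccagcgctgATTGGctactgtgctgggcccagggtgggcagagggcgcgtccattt
Dhcr7, chr7:143822917-143823166, plus strand: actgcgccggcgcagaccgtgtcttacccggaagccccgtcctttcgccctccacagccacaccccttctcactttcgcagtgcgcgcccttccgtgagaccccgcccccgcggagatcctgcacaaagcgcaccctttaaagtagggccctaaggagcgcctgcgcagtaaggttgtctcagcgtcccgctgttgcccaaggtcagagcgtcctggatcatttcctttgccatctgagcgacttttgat
Hsd17b7, chr1:169969206-169969455, minus strand: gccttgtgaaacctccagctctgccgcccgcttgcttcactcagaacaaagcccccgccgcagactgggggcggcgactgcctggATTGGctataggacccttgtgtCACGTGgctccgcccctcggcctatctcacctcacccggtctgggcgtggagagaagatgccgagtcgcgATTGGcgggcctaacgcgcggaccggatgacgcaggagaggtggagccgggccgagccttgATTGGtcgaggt
CCAAT stands once before Tm7sf2 and 3 times before Hsd17b7, which also holds an E-box 143 bases before its start. The printed window of Dhcr7 holds none of the 3 motifs; of its other windows, one holds an E-box 164 bases before the start and the other holds 2 CCAAT boxes, 85 and 49 bases before it. Among genes with a window, CCAAT was present in at least 1 window of 4 of 4 that rose between the outer groups, 5 of 9 that fell and 10 of 12 that did not pass. Not all windows counted lie at the start of the gene: no window of Mvk, Abca1, Acaca, Lss, Fasn, Hsd17b7, Srebf1 or Insig2 does.

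The other late enzymes did not pass between the outer groups. Ebp, the sterol isomerase, read 10.35 and 10.23, then 10.45 and 10.48, then 10.02 and 10.29, and passed only between the Cxcr5+ groups (-0.31, SE 0.105, adjusted p = 0.0491). That call ended after quantile normalisation (adjusted p = 0.103) and without Cxcr5+Bcl6+ replicate 1 (0.282), Cxcr5+Bcl6- replicate 1 (0.159) or Cxcr5+Bcl6- replicate 2 (0.205). Msmo1, the methylsterol oxidase, differed by 0.31 between the outer groups (interval 0.06 to 0.56, adjusted p = 0.0538) and Sc5d, the sterol desaturase before Dhcr7, by 0.14 (-0.07 to 0.35, adjusted p = 0.307). Both passed as higher after quantile normalisation (adjusted p = 0.0194 and 0.0318). Msmo1 also passed with an intensity trend (0.0185), with dim probe sets left out (0.0334 and 0.0421), with 1 probe set per gene (0.0486) and without Cxcr5-Bcl6- replicate 1 (0.015).

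Of the SREBP control genes, 1 of 6 passed, and only between the outer groups, a share below the 35.3% over all probe sets. Scap, the escort of the SREBP factors, read 10.99 and 11.17 in Cxcr5-Bcl6-, 10.74 and 10.84 in Cxcr5+Bcl6- and 10.58 and 10.60 in Cxcr5+Bcl6+ arrays. The groups did not overlap, and Scap fell 1.40-fold between the outer ones (-0.49, SE 0.0952, adjusted p = 0.00175), while its steps of -0.29 (adjusted p = 0.081) and -0.20 (adjusted p = 0.153) did not pass.

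The factors themselves did not pass. Srebf2, the factor known mainly for sterol genes, read 11.62 and 11.80 in Cxcr5-Bcl6-, 11.53 and 11.68 in Cxcr5+Bcl6- and 11.72 and 11.88 in Cxcr5+Bcl6+ arrays, and the outer groups overlapped (0.09, interval -0.14 to 0.32). Srebf1, known mainly for fatty acid genes, read 9.89 and 9.98, then 10.00 and 9.98, then 10.03 and 10.17 (0.17, interval -0.04 to 0.37), and passed after quantile normalisation (adjusted p = 0.0246). Insig1, itself a known SREBP target, differed by -0.02 between the outer groups (-0.22 to 0.18) and Insig2, its homologue, by 0.08 (-0.16 to 0.32). Stard4, a carrier of cholesterol between membranes, differed by 0.23 (0.01 to 0.45, adjusted p = 0.105) and passed after quantile normalisation (adjusted p = 0.0107) and without Cxcr5-Bcl6- replicate 1 (0.0493). The intervals of these genes together span -0.22 to 0.45 on the log2 scale. Messenger RNA levels do not show how much SREBP is processed.

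Of the fatty acid genes, both desaturase genes rose in every comparison and 3 of the other 4 genes fell between the outer groups. Over all probe sets 17.6% were called higher and 17.7% lower between the outer groups. Scd1 and Scd2 encode stearoyl-CoA desaturases, which put the double bond into saturated fatty acids. Scd2 read 11.04 and 11.05 in Cxcr5-Bcl6-, 11.88 and 11.87 in Cxcr5+Bcl6- and 12.72 and 12.69 in Cxcr5+Bcl6+ arrays. The steps were of equal size, 0.83 each (SE 0.0849, adjusted p = 8.47e-05 and 3.02e-05), and the whole rise was 3.15-fold (1.65, adjusted p = 7.12e-08).

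Scd1 read 6.74 and 6.78, then 7.71 and 7.81, then 8.29 and 8.71, a rise of 3.35-fold (1.74, SE 0.124, adjusted p = 9.09e-07) with steps of 0.999 (adjusted p = 0.000318) and 0.74 (adjusted p = 0.00104). No groups overlapped for either gene, and all 6 calls held in every alternative run that kept the probe set. Scd1 lay under the median level of all probe sets, so the filter at the median left it out. In Cxcr5-Bcl6- cells it stood below 7.48, the 95th percentile of 1223 probe sets for olfactory, vomeronasal and trace-amine receptors, genes not known for a role in T cells. With that percentile as a floor for the Cxcr5-Bcl6- level, Scd1 was at least 2.03-fold higher in the Cxcr5+Bcl6+ and at least 1.21-fold higher in the Cxcr5+Bcl6- group, so the larger values above are those of the probe set as read. These receptors had a median difference of 0.22 between the outer groups, against 1.74 for Scd1, and of 0.30 between the Cxcr5+ groups, against 0.74. Of the 1223, 423 were called higher and 1 lower between the outer groups, and 573 higher and 0 lower between the Cxcr5+ groups. In the RefSeq gene order of GRCm38.p6, Scd3, Scd2, Scd4 and Scd1 follow one another on chromosome 19. Scd3 showed 6.84 to 6.96 in Cxcr5-Bcl6-, 6.91 to 6.99 in Cxcr5+Bcl6- and 6.94 to 6.96 in Cxcr5+Bcl6+ arrays, differed by 0.05 between the outer groups (adjusted p = 0.726) and was named after its values were seen. All its readings lay below 7.48, so its level is not told apart from background. How far probes of the Scd genes cross-hybridise was not tested.

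**Figure D3:**
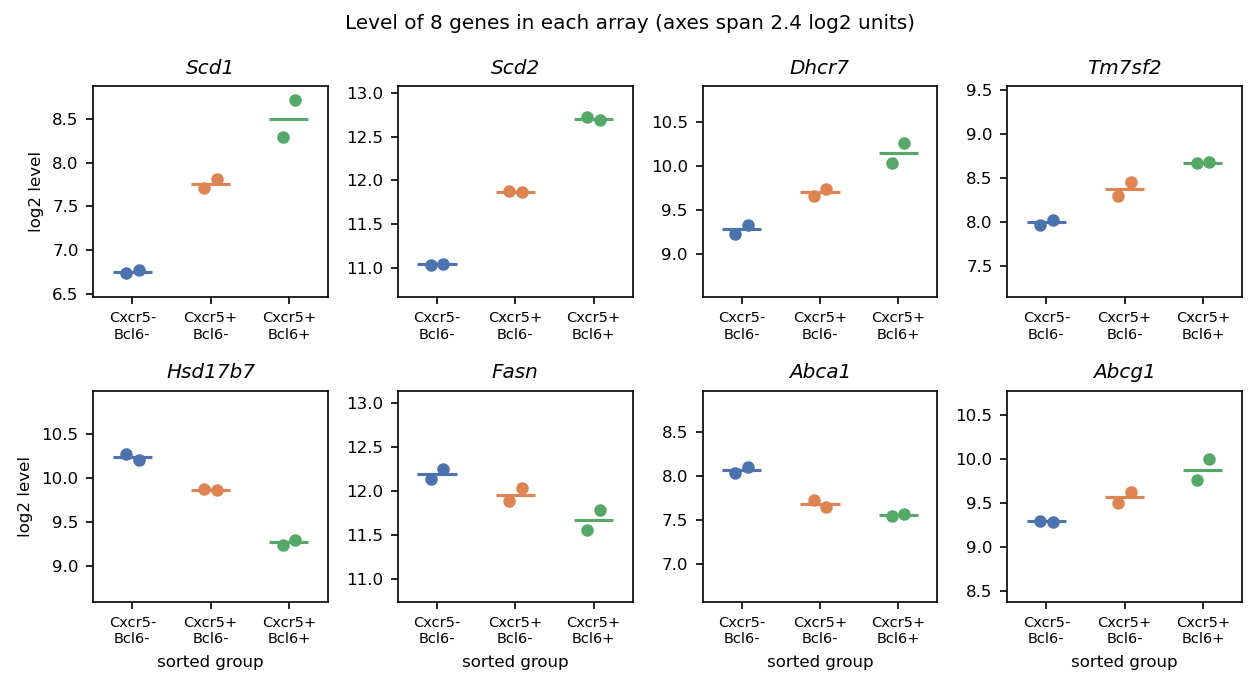
Log2 level of 8 genes in each array (points; bars are group means) by sorted group; each axis spans the same 2.4 log2 units but starts at its own level. Scd1, Scd2, Dhcr7, Tm7sf2 and Abcg1 climb from Cxcr5-Bcl6- to Cxcr5+Bcl6+ cells, and Hsd17b7, Fasn and Abca1 descend.

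Among the listed genes that build the carbon chain, Fasn, Acaca and Elovl6 were lower in Cxcr5+Bcl6+ cells. Fasn, fatty acid synthase, read 12.13 and 12.25 in Cxcr5-Bcl6-, 11.88 and 12.03 in Cxcr5+Bcl6- and 11.56 and 11.78 in Cxcr5+Bcl6+ arrays, and was 1.43-fold lower between the outer groups (-0.52, SE 0.105, adjusted p = 0.00215). Acaca, acetyl-CoA carboxylase, which makes malonyl-CoA, was lower by both probe sets. Probe set 10379820 read 9.31 and 9.23, then 8.98 and 9.04, then 8.44 and 8.77 (-0.66, SE 0.112, adjusted p = 0.000644), and 10394538 read 10.28 and 10.32, then 10.03 and 10.05, then 9.74 and 10.04 (-0.41, SE 0.106, adjusted p = 0.00984). Between the Cxcr5+ groups 10379820 passed (-0.40, adjusted p = 0.0205) and 10394538 did not (-0.15, adjusted p = 0.34).

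Elovl6, which lengthens the product of Fasn, read 10.50 and 10.53, then 10.50 and 10.56, then 10.02 and 10.25. The Bcl6- groups differed by 0.02 (adjusted p = 0.963), and the lower level was that of Cxcr5+Bcl6+ cells, where it fell by 0.38 against Cxcr5-Bcl6- (adjusted p = 0.0105) and by 0.40 against the Cxcr5+Bcl6- arrays (adjusted p = 0.012). Acly, which supplies cytosolic acetyl-CoA, read 11.13 and 11.12, then 11.02 and 11.08, then 11.03 and 11.09 and differed by -0.06 (interval -0.25 to 0.13). Cxcr5+Bcl6+ replicate 1 was the lower of its pair for Fasn, Elovl6 and both Acaca probe sets. Without it the calls against Cxcr5-Bcl6- cells ended for Elovl6 (adjusted p = 0.0778) and Acaca 10394538 (0.0751), and those between the Cxcr5+ groups ended for Elovl6 (0.0842) and Acaca 10379820 (0.143). The latter call also ended without Cxcr5+Bcl6- replicate 1 (0.0566) or 2 (0.103), and that of Elovl6 without Cxcr5+Bcl6- replicate 2 (0.089).

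The window before Fasn is shown as that of the chain-building enzyme that gives its name to the pathway. This only window of Fasn is not at the start of the gene.
Fasn, chr11:120824548-120824797, minus strand: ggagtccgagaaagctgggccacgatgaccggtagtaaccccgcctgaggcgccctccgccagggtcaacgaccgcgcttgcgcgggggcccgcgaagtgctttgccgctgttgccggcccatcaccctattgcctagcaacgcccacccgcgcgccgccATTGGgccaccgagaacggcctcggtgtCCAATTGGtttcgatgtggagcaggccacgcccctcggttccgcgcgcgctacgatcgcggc
It holds 3 CCAAT boxes within the 90 bases before the start, of which the last pair overlaps on opposite strands in CCAATTGG, and no match to the other motifs.

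The exporters split. Abca1, which passes cholesterol to apolipoproteins, read 8.03 and 8.10 in Cxcr5-Bcl6-, 7.72 and 7.65 in Cxcr5+Bcl6- and 7.54 and 7.57 in Cxcr5+Bcl6+ arrays. Relative to the Cxcr5-Bcl6- arrays it fell by 0.38 in the Cxcr5+Bcl6- group (adjusted p = 0.0152) and by 0.51 in the Cxcr5+Bcl6+ group (adjusted p = 0.000689). The smaller of these calls ended on leaving out Cxcr5-Bcl6- replicate 2 (adjusted p = 0.0647), Cxcr5+Bcl6- replicate 1 (0.0835) or Cxcr5+Bcl6- replicate 2 (0.192). Abcg1, which passes cholesterol to lipoprotein particles, rose instead, at 9.30 and 9.29, then 9.50 and 9.63, then 9.76 and 10.00 (0.58, SE 0.102, adjusted p = 0.000859). Its step between the Cxcr5+ groups (0.31, adjusted p = 0.0435) ended after centring (adjusted p = 0.134) and without Cxcr5+Bcl6+ replicate 2 (0.216), Cxcr5+Bcl6- replicate 1 (0.294) or Cxcr5+Bcl6- replicate 2 (0.0866). Ch25h, which makes an oxysterol that dampens SREBP processing, read 6.28 to 6.65 in all arrays, below the 95th percentile of the receptor probe sets, so its level is not told apart from background.

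**Figure D4:**
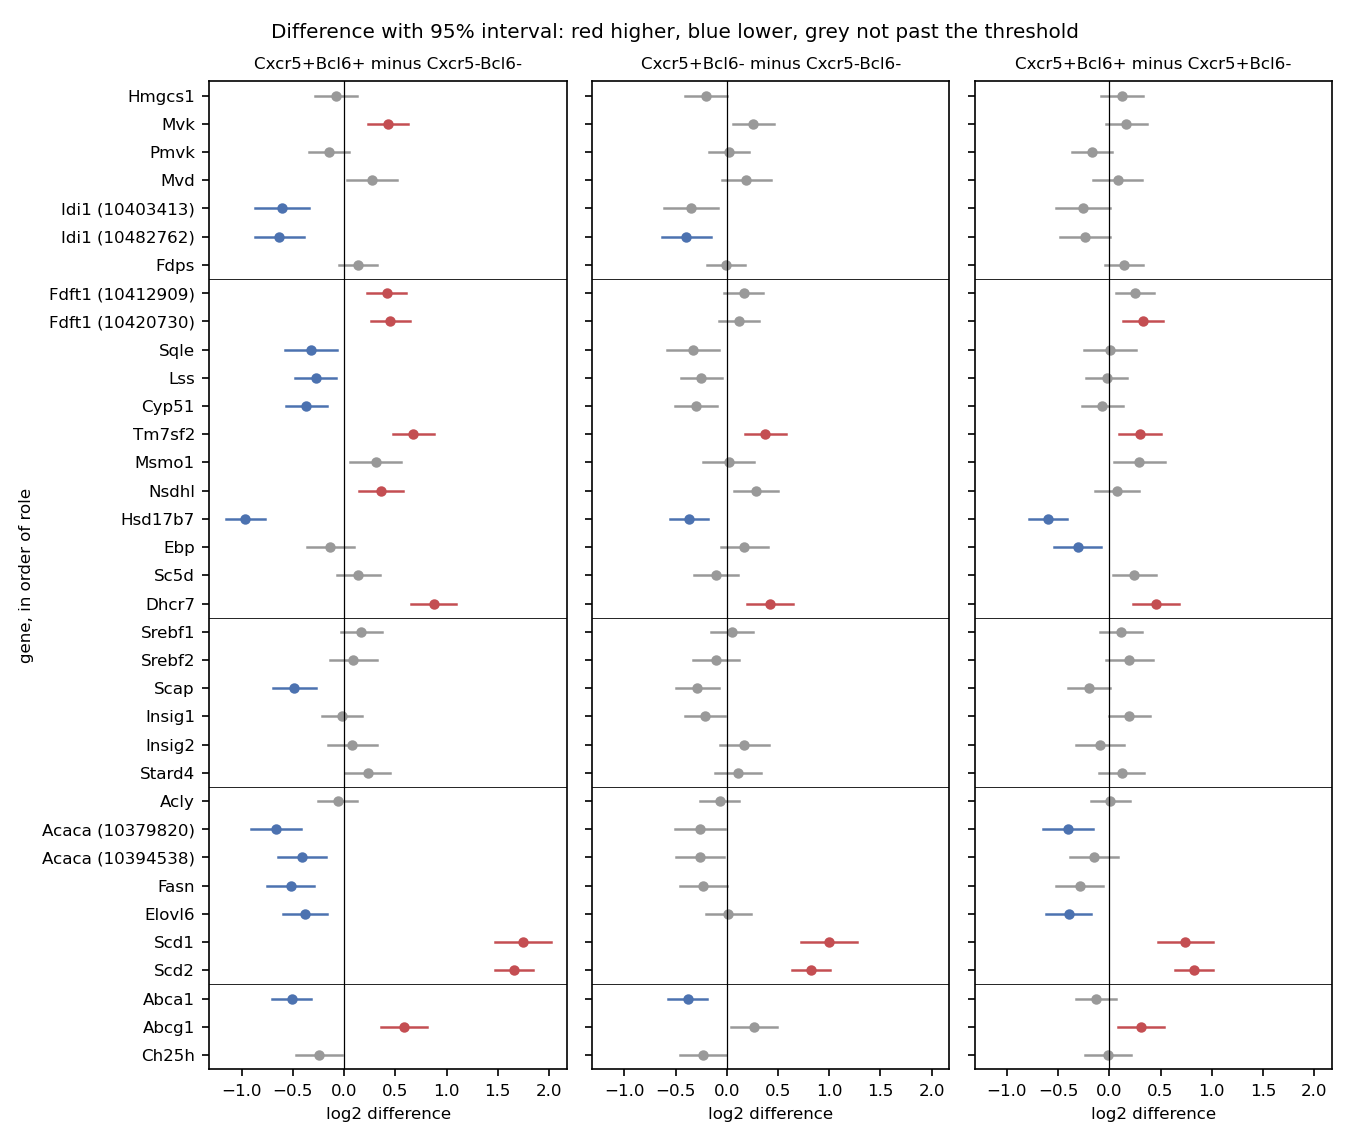
Difference in log2 level for each probe set in the 3 comparisons (panels), with its 95% interval from the fit; red marks probe sets that were higher, blue lower, and grey those past no threshold. Both desaturase genes are red in all 3 panels, and the sterol genes alternate in the left panel between red (Fdft1, Tm7sf2, Nsdhl, Dhcr7) and blue (Sqle, Lss, Cyp51, Hsd17b7).

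Further genes of these pathways, outside the 33, were counted by lists with 1 probe set per gene, and up to 4 of each list are named by their place in it. Their counts stand beside 17.6% of all probe sets called higher and 17.7% called lower between the outer groups, 35.3% in all, and a median difference of 0.04. For sterol uptake and storage, 1 of 12 measured genes rose between the outer groups and 6 fell (median difference -0.18). Lipa, the lysosomal lipase that frees cholesterol from its esters, had mean levels of 10.11 ± 0.098 (Cxcr5-Bcl6-), 11.2 ± 0.0198 (Cxcr5+Bcl6-) and 11.64 ± 0.016 (Cxcr5+Bcl6+; SD, n = 2 each) and passed in all 3 comparisons (1.54, 1.09 and 0.45, adjusted p = 2.07e-07, 1.88e-05 and 0.00358). Npc2, which hands lysosomal cholesterol on, was lower between the outer groups (-0.32, adjusted p = 0.0211), and Npc1, its membrane partner (0.24, adjusted p = 0.0916), and Ggps1, a branch-point isoprenoid synthase (-0.01, adjusted p = 0.976), did not pass.

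For SREBP processing, 1 of 8 measured genes was higher and 1 lower between the outer groups (median difference -0.14), a share below that over all probe sets. Mbtps1, the protease that makes the opening cut in SREBP, rose between the outer groups (0.42, adjusted p = 0.00362) and between the Cxcr5+ groups (0.37, adjusted p = 0.0119). Erlin1, an endoplasmic reticulum protein that restrains SREBP, fell by 0.89 (adjusted p = 3.86e-05), with Cxcr5+Bcl6- cells between (-0.45 from Cxcr5-Bcl6- cells, adjusted p = 0.0157). Erlin2 (-0.01, adjusted p = 0.935) and Rnf139 (-0.19, adjusted p = 0.193) did not pass.

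For liver X receptor and oxysterol genes, 3 of 10 passed between the outer groups, each of them lower (median difference -0.04). This share was near that over all probe sets. Nr1h3, a liver X receptor (0.15, adjusted p = 0.245), and Hsd3b7 (-0.01, adjusted p = 0.949) did not pass. Both read below 7.48, the 95th percentile of the olfactory and related receptor probe sets, in every array. Their levels are thus not told apart from background. Mylip, a liver X receptor target that degrades lipoprotein receptors, did not pass there (0.17, adjusted p = 0.172). Between the Cxcr5+ groups Mylip rose by 0.38 and passed (adjusted p = 0.00913). Cyp7b1, which acts on the product of Ch25h, had mean levels of 6.70 ± 0.317 (Cxcr5-Bcl6-) and 5.97 ± 0.14 (Cxcr5+Bcl6+; SD, n = 2 each), below the receptor percentile throughout, though the difference passed (-0.73, adjusted p = 0.00115). For other fatty acid synthesis genes, 7 of 20 were higher and 4 lower (median difference 0.12). Of the chain-lengthening genes in this list, Elovl5 (0.49, adjusted p = 0.000995), Tecr (0.41, adjusted p = 0.00439), Hacd3 (0.39, adjusted p = 0.0115) and the dim Elovl3 (0.34, adjusted p = 0.036) were higher. Hsd17b12 was lower (-0.84, adjusted p = 7.98e-05), and Elovl1, Hacd2 and Elovl7 did not pass. Mid1ip1 was also higher (0.63, adjusted p = 0.000237). Acsl4 (-0.95, adjusted p = 1.07e-05), Acsl5 (-0.71, adjusted p = 0.000279) and Fads3 (-0.48, adjusted p = 0.00117) were lower. The mean level of Fads3 was below 7.48 in both Cxcr5+ groups. These genes and the chain-lengthening genes were named after their values were seen. Fads1 and Fads2, which put further double bonds into polyunsaturated chains, were higher by 0.62 and 0.87 (adjusted p = 0.000412 and 1.2e-05). Fads2 stood at 9.16 ± 0.0171 (Cxcr5-Bcl6-), 9.06 ± 0.037 (Cxcr5+Bcl6-) and 10.03 ± 0.0622 (Cxcr5+Bcl6+; SD, n = 2 each), so its rise lay between the Cxcr5+ groups (0.97, adjusted p = 1.1e-05) and not between the Cxcr5+Bcl6- and Cxcr5-Bcl6- cells (-0.10, adjusted p = 0.626). Slc25a1 (0.17, adjusted p = 0.166) and Acss2 (0.14, adjusted p = 0.408), which supply acetyl-CoA, did not pass.

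Markers of other cells moved between the groups beside these genes. The summed level of 9 B cell markers, as log2 of the sum, was 10.43 to 10.46 in Cxcr5-Bcl6-, 11.20 to 11.27 in Cxcr5+Bcl6- and 11.79 to 11.86 in Cxcr5+Bcl6+ arrays, the order in which Scd1, Scd2, Tm7sf2 and Dhcr7 climbed. Of these markers 8 of 9 rose between the outer groups, and 7, 4 and 3 of them lay at or below the receptor percentile in the 3 groups, Cd79a, Blk and Cr2 in all of them. The sum over 8 plasmacytoid dendritic cell markers went from 13.04 to 13.14 down to 11.45 to 11.46 and 10.89 to 10.98, with all 8 lower in Cxcr5+Bcl6+ cells. That over 11 conventional dendritic cell and macrophage markers went from 13.03 (both arrays) to 11.30 to 11.31 and 11.03 to 11.07, with 7 lower and 1 higher, and Csf1r and Adgre1 at or below the percentile in all groups. This is the order in which Hsd17b7, Idi1, Scap, Fasn and Abca1 fell. The sum over 9 mitosis genes was 12.93 to 13.04, 14.25 to 14.35 and 13.81 to 13.89, highest in the Cxcr5+Bcl6- group, and that over 7 stromal and endothelial markers was 11.25 to 11.28, 11.63 to 11.64 and 11.88 to 11.91. Of the latter markers 1 of 7 passed in each comparison, namely Pecam1, whose mean level was 10.13, 10.88 and 11.21, and the other 6 did not. T cell markers stood high in every array, with sums over 7 genes of 15.44 to 15.46, 15.53 to 15.55 and 15.62 to 15.66, again without overlap. Of these genes 4 rose and 2 fell between the outer groups, and Cd4 passed in all 3 comparisons (0.79, 0.51 and 0.28, adjusted p = 2.76e-05, 0.00297 and 0.0365). The part of other cells or of cell division in the results was not tested, and in bulk samples fewer cells of a type cannot be told apart from less RNA per cell.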

How the data were processed

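The deposited table holds log2 levels of 35556 probe sets on 6 arrays, normalised by the authors; the submitters' processing notes list GCOS 1.1, RMA and the Affymetrix Expression Console with no order or settings. The log2 scale was read from the values. No source used here gives the genome build or detection calls. For arrays, their number limits the precision.

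Symbols came from the platform's annotation (21789 probe sets with 1 symbol, 1621 with several, 12146 unnamed) and were updated through Entrez identifiers for 21698. The 23410 named probe sets were fitted with limma 3.58.1 in R 4.3.3 (lmFit on group means over all 6 arrays, eBayes at default settings, 3 residual degrees of freedom, a two-sided test, Benjamini-Hochberg adjustment over all of them). No fold threshold was set. The members and gene lists were chosen with earlier results of these data known. Every member is named; of each further list the leading 4 measured genes are named, and the lists of markers are given as counts and sums. Lists used the probe set with the highest mean of each gene. Promoter windows came from RefSeq (GRCm38.p6).

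Replicate numbers were not taken to pair arrays, since the labels do not say that they do. The differences between replicates 1 and 2 correlated at -0.23, -0.05 and 0.26 between groups, which does not decide whether arrays were paired. The fit was tested on simulated data. Its recovery of 2-fold changes missed the limit set when simulated spreads were resampled from residual SDs, and met it after they were drawn from the fitted prior instead. Alternatives were other eBayes options, quantile normalisation, median centring, filters on dim probe sets, other sets of rows, other thresholds, leaving out each array, the 4 compared arrays alone and a replicate block.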

Additional observations from a re-analysis of the deposited data

How the results depend on the processing

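With 2 arrays a group, calls near the threshold moved with the setting. Over 105 pairs of probe set and comparison, 18 settings gave 1869 values, of which 97 lost a call, 64 gained one and 0 turned a called direction. Of the 38 calls, 20 held throughout apart from the 1.5-fold threshold, among them all 6 of Scd1 and Scd2.

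For Cxcr5+Bcl6+ against Cxcr5-Bcl6- (21 called, 9 higher and 12 lower), quantile normalisation gave 15 higher, and a 1.5-fold threshold left 8, 4 higher and 4 lower; leaving out an array gave 17 to 21 calls, 8 to 11 higher and 9 to 12 lower. For Cxcr5+Bcl6- against Cxcr5-Bcl6- (7 called, 4 higher and 3 lower), an intensity trend gave 11, 7 of them lower, all rows left 2, 2 higher and 0 lower, an adjusted p under 0.1 gave 12, 6 of them lower, and the 1.5-fold threshold left 2, with 2 higher and 0 lower. Leaving out an array gave 2 to 8 calls, 2 to 4 higher and 0 to 4 lower: 2 without either Cxcr5+Bcl6- array and 3 without Cxcr5-Bcl6- replicate 1. For Cxcr5+Bcl6+ against Cxcr5+Bcl6- (10 called, 6 higher and 4 lower), an intensity trend gave 10 higher, centring 3 higher, all rows 6 with 2 lower, and the 1.5-fold threshold 3, 2 higher and 1 lower. Leaving out an array gave 4 to 13 calls, 2 to 8 higher and 1 to 5 lower: 4 without either Cxcr5+Bcl6- array and 5 without Cxcr5+Bcl6+ replicate 1. Stricter thresholds lower a count by construction. Leaving out an array leaves 1 array in a group and fewer residual degrees of freedom, so a call can end while its difference barely moves. Without Cxcr5+Bcl6- replicate 1 or 2, Hsd17b7 differed by -0.37 or -0.36 from Cxcr5-Bcl6- cells, against -0.37 with all arrays. Tm7sf2 moved more, to 0.46 or 0.30 against 0.38. The cause of the other moves was not tested. With the replicate block the counts were 21, 7 and 10, with 11 higher and 10 lower in the comparison of the outer groups; it ended the calls of Sqle (adjusted p = 0.057) and Lss (0.0509) there and of Ebp between the Cxcr5+ groups (0.0643), while Mvd (0.0404) and Msmo1 (0.036) passed between the outer groups and Fasn (0.0418) between the Cxcr5+ groups.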

Other observations

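Fatty acid breakdown, the reverse of the synthesis described above, was counted by a list of 15 measured genes. Between Cxcr5+Bcl6+ and Cxcr5-Bcl6- cells 6 were higher and 2 lower, between Cxcr5+Bcl6- and Cxcr5-Bcl6- cells 3 were higher, and between the Cxcr5+ groups 1 was higher and 4 lower. Over all probe sets 17.6% were called higher and 17.7% lower, then 5.22% and 5.93%, then 13.4% and 13%. Whether counts among 15 genes depart from these shares was not tested. Cpt1a, which controls entry of fatty acids into mitochondria, had mean log2 levels of 9.33 ± 0.00317 (Cxcr5-Bcl6-), 10.12 ± 0.014 (Cxcr5+Bcl6-) and 11.07 ± 0.0861 (Cxcr5+Bcl6+; SD, n = 2 each). Its rise of 1.74 (limma, adjusted p = 6.54e-08) came in steps of 0.79 (adjusted p = 0.00016) and 0.95 (adjusted p = 1.39e-05), and the 3 groups did not overlap. Cpt2, its partner on the inner membrane, was higher by 0.26 (adjusted p = 0.0403), and the dehydrogenase genes Acadvl (-0.07, adjusted p = 0.598) and Acadm (0.01, adjusted p = 0.97) did not pass. A further dehydrogenase gene, Acadl, was higher between the outer groups (0.47, adjusted p = 0.00158), as were Hadha (0.30, adjusted p = 0.0202), Hadhb (0.66, adjusted p = 0.00277) and Decr1 (0.45, adjusted p = 0.00332). Slc25a20 (-0.66, adjusted p = 0.000158) and Ppard (-0.43, adjusted p = 0.00245) were lower. The genes from Acadl on were named after their values were seen.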
